A study of Rattus norvegicus with 17 samples.

Results

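The adipokine genes described here are 9 genes whose products are secreted by fat cells and act as hormones or mediators: Adipoq, Lep, Retn, Rarres2, Cfd, Nampt, Agt, Rbp4 and Angptl4. They were taken from the array annotation by gene symbol. All 9 were found, with 10 probes among 22226, or 9 genes among the 13278 with a symbol, and where a gene had several probes the one with the highest mean value stood for it. Gene expression was read from total RNA on RatRef-12 arrays (Illumina), a single array for every tissue sample, in male rats aged 7 months on standard chow. Of the 17 arrays, 9 held adipose tissue (5 BN, 4 GK) and 8 held liver (5 BN, 3 GK). GK stands for Goto-Kakizaki, an inbred model of spontaneous type 2 diabetes, and BN for Brown Norway, the inbred control strain with normal blood glucose. The labels name no treatment. They list 5 BN animals, where the protocol text gives 4. The adipose depot is not given in the labels. BN adipose and liver arrays of 1 replicate number came from 1 rat, and GK adipose replicates 2, 3 and 4 came from the rats of GK liver replicates 1, 2 and 3. The strains differ across the whole genome, and BN is the strain of the rat reference assembly, so a sequence variant under a probe cannot be told apart from a difference in mRNA.

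Adipokines link the state of the fat store to the rest of the body. Adiponectin (Adipoq) sensitises liver and muscle to insulin, leptin (Lep) reports fat mass to the hypothalamus, and resistin (Retn) is in rodents an adipocyte product that opposes insulin action. Chemerin (Rarres2) attracts immune cells and supports adipocyte differentiation, and adipsin (Cfd) is factor D, the protease that activates factor B in the alternative complement pathway. Nampt makes nicotinamide mononucleotide for NAD and is also found outside cells as visfatin. Angiotensinogen (Agt), retinol binding protein (Rbp4) and the lipoprotein lipase inhibitor Angptl4 are made by both adipocytes and hepatocytes.

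Between 7315 and 8237 probes were above background on the adipose arrays and between 8004 and 9747 on the liver arrays, where background is set by the negative control probes of the same array (detection score above 0.99). Each member was read from 22 to 68 beads per array. The 11 measured adipocyte markers were above background on every adipose array, and the 13 hepatocyte markers on every BN liver array. Each BN liver array also had 9 of the 11 adipocyte markers above background. With vsn, 8 of these 11 were lower and 2 higher in BN liver than in BN adipose tissue (limma adjusted p below 0.05). The array labelled GK liver replicate 2 stood apart: 15 of 16 kidney markers were above background there, against 1 or 2 on each other liver array, and the median of the hepatocyte list was 9.71 (log2) against 14.97 to 15.59 on the others. In adipose tissue, 10 of 13 hepatocyte markers were above background on GK adipose replicate 1 and 10 of 13 skeletal muscle markers on GK adipose replicate 2. BN adipose arrays had 1 to 6 hepatocyte markers above background, most on replicate 1, and 2 to 9 muscle markers. The summed level of the hepatocyte list (log2) was 13.01 to 13.93 in BN and 12.78 to 13.61 in GK adipose tissue, and that of the muscle list 9.04 to 13.37 and 9.27 to 15.99. Strain differences are therefore given with and without these GK arrays.

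**Figure D1:**
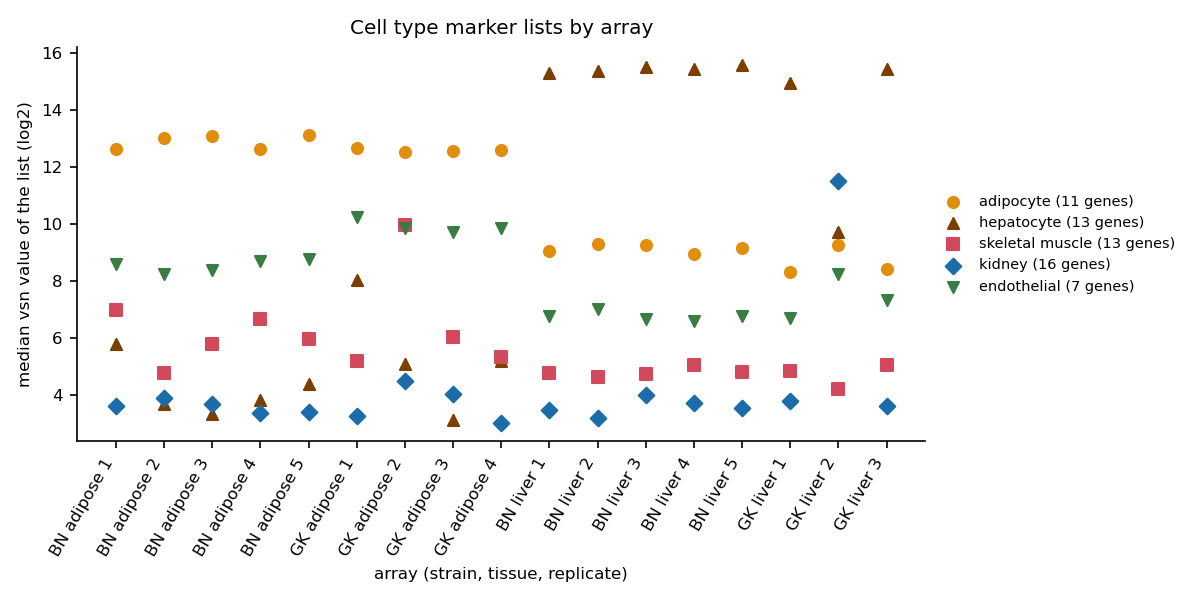
Median vsn value (log2) of 5 cell type marker lists on each of the 17 arrays, 1 symbol per list. The kidney list stands at 11.5 on GK liver replicate 2 and at 4.49 or below elsewhere, the hepatocyte list reaches 8.04 on GK adipose replicate 1, and the skeletal muscle list reaches 9.96 on GK adipose replicate 2.

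The members separated into those nearly limited to adipose tissue, those read in both tissues, and those higher in liver. On the BN adipose arrays and on the GK adipose arrays, 8 members were above background on every array, and Lep was missed on 1. On the BN liver arrays 6 members were above background on every array, whereas Adipoq, Lep and Retn were above background on none. In bulk tissue, fewer cells of a type and less RNA per cell cannot be told apart. Values below are log2 intensities after background subtraction and a joint vsn normalization of the 17 arrays, in the order of the replicates.

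**Figure D2:**
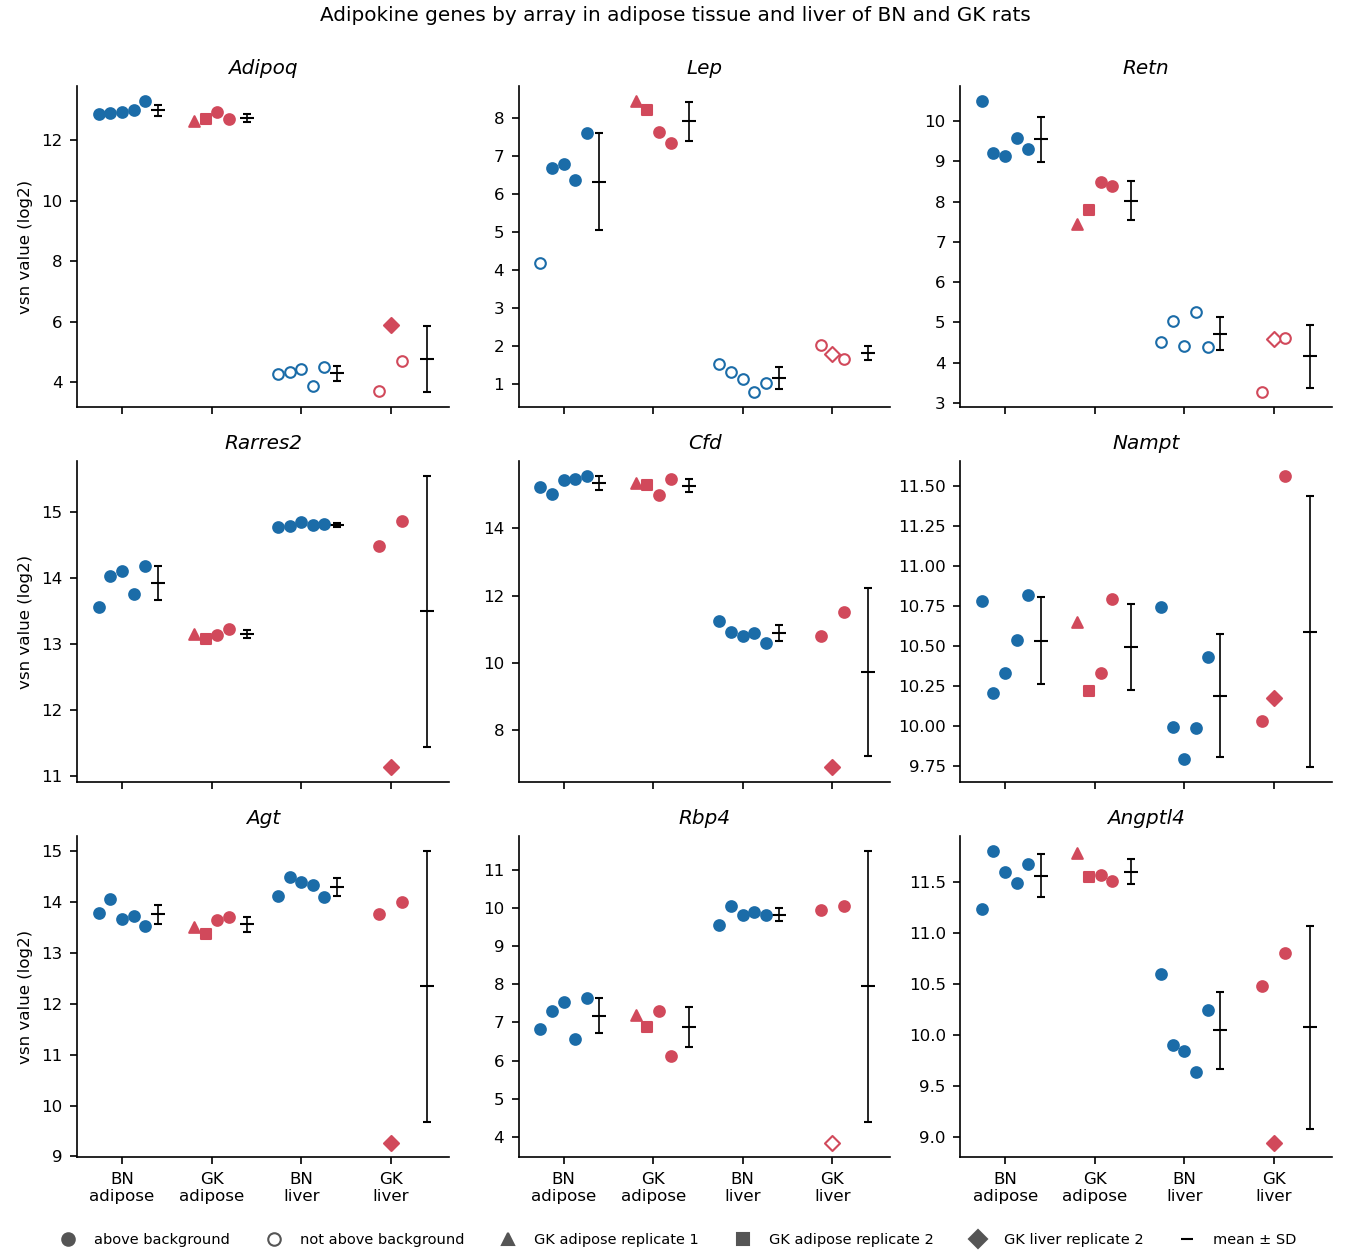
Values of the 9 adipokine genes (vsn, log2) on every array in the 4 groups, with filled symbols above background, open symbols not above background, and mean ± SD beside each group. GK adipose replicates 1 and 2 and GK liver replicate 2 have their own symbols. The GK and BN adipose values of Retn and Rarres2 do not overlap, and GK liver replicate 2 is lowest in its group for Rarres2, Cfd, Agt, Rbp4 and Angptl4.

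Adipoq (probe ILMN_1363454) read 12.85, 12.89, 12.92, 12.97 and 13.30 in BN adipose tissue. In GK adipose tissue it read 12.62, 12.68, 12.92 and 12.68. The strains overlapped, and the replicates of each strain lay within 0.5 of each other. In BN liver it read 3.88 to 4.52, above background on no array. In GK liver it was above background only on replicate 2 (5.90), the array with the kidney markers, and read 3.70 and 4.68 on replicates 1 and 3. The fitted vsn difference between BN liver and BN adipose tissue was -8.70 (limma adjusted p = 2.17e-11), from liver values below background. Against background, BN liver was about 244-fold lower on the vsn scale. This fold takes the lowest signal above background on each liver array as the limit, or the array's own value where that was higher. The limit is not strict. On BN liver replicate 3 it was 4.97, while an Angptl4 probe (ILMN_1530352) read 5.61 there and was not above background. With neqc, which adds an offset before the log2 is taken, the fitted difference was -5.82. The folds given below for other genes with a group not above background use the same kind of limit on the vsn scale, and are approximate too. The limma p of such a gene belongs to its fitted difference and not to the fold.

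Lep (ILMN_1361844) read 4.17, 6.69, 6.79, 6.37 and 7.59 in BN adipose tissue, with replicate 1 not above background. In GK adipose tissue it read 8.46, 8.20, 7.64 and 7.34, above background on all 4 arrays. All GK values but replicate 4 lay above the highest BN value, so that the strains overlapped by 1 array on each side, and GK adipose replicates 1 and 2 had the highest values. In liver Lep was above background on none of the 8 arrays (0.78 to 2.02), and no strain comparison in liver can be read from it. On the vsn scale, against that limit, BN liver was about 2.4-fold lower than BN adipose tissue, where 4 of 5 arrays measured it. The limma adjusted p of 8.66e-06 belongs to the fitted vsn difference between means of 6.32 in adipose tissue and 1.15 in liver. That liver mean is of values below background. The fitted difference was -0.26 with neqc. Among the members, Lep had the widest spread within BN adipose tissue (SD 1.29, n = 5).

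Retn (ILMN_1357867) read 10.50, 9.21, 9.13, 9.58 and 9.30 in BN adipose tissue and 7.44, 7.80, 8.48 and 8.37 in GK adipose tissue. Every GK value was below every BN value. The lowest were GK adipose replicates 1 and 2, and the highest was BN adipose replicate 1, which was also the lowest BN array for Lep. In liver Retn was above background on none of the 8 arrays (3.27 to 5.27). At a detection score of 0.95, 3 of the liver arrays would pass, and no other member changed status on any array. On the vsn scale, against that limit, BN liver was about 21.7-fold lower than BN adipose tissue. The limma adjusted p of 1.34e-07 belongs to the fitted vsn difference between means of 9.55 in adipose tissue and 4.73 in liver. The fitted difference was -1.87 with neqc.

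The promoters of these adipocyte hormones are shown because the 3 genes share the same tissue pattern: the 250 bases before the start of each gene, in the RefSeq annotation of assembly GRCr8, with the motifs found in capitals. Promoters of 7 of the 9 members matched by symbol. Adipoq lies at chr11:91240170-91240419 (minus strand), Lep at chr4:58626288-58626537 (plus strand) and Retn at chr12:6508524-6508773 (plus strand).
Adipoq promoter: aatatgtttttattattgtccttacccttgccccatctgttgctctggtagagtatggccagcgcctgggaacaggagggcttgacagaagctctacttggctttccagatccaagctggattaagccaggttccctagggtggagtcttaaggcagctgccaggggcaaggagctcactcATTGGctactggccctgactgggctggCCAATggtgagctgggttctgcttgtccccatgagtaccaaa
Lep promoter: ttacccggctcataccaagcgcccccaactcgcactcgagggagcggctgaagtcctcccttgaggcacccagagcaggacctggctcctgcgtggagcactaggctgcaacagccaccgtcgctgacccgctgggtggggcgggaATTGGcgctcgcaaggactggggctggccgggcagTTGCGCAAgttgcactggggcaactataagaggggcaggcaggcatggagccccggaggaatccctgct
Retn promoter: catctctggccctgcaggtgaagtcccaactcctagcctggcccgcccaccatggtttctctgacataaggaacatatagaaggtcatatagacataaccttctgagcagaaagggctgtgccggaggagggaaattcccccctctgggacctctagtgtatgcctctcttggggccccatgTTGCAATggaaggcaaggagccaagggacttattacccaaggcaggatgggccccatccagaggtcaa
Searched on both strands were the letters TTGCGCAA, and separately TTGCAAT, both bound by C/EBP factors that drive adipocyte differentiation, and the CCAAT box (CCAAT). The TATA box (TATAAA) and DR1, the direct repeat bound by PPARG with RXRA, were searched too. Lep held TTGCGCAA, which 0.14% of 33469 promoters held, and 1 CCAAT on the reverse strand, with no overlap between them. Retn held TTGCAAT, found in 1.88% of promoters. Adipoq held 2 CCAAT motifs, 1 on each strand, and 34% of promoters held at least 1. None of the 7 held DR1, found in 0.0508% of promoters. Rbp4 and Angptl4, both read in liver and adipose tissue, held the TATA box, as did 12.9% of promoters, with the 2 matches in Angptl4 overlapping, and Rarres2 and Cfd held none of the 5 motifs. These matches describe letters and not bound sites.

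Rarres2 (ILMN_1370339) read 13.56, 14.03, 14.10, 13.75 and 14.18 in BN adipose tissue and 13.15, 13.07, 13.12 and 13.22 in GK adipose tissue. Every GK value was below every BN value, and the GK arrays were close together (SD 0.06, n = 4, against 0.26 in BN, n = 5). In BN liver it read 14.77 to 14.85, and in GK liver 14.49, 11.12 and 14.86. Only GK liver replicate 2 fell outside the range of the other liver arrays by more than 1, at 11.12. The GK adipose arrays with the most hepatocyte or muscle markers (replicates 1 and 2) read within the range of GK adipose replicates 3 and 4 or just below it.

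Cfd (ILMN_1371456) read 15.02 to 15.55 in BN adipose tissue and 15.34, 15.29, 14.99 and 15.46 in GK adipose tissue, with overlapping ranges. Its intensity on GK adipose replicates 1 and 2 was the highest of all probes on those arrays, so differences there sit at the top of the scale. In BN liver it read 10.58 to 11.25, and in GK liver 10.80, 6.89 and 11.53. It was above background on all 17 arrays, and fell by 4.46 ± 0.17 (SE) from BN adipose tissue to BN liver on the log2 scale (limma adjusted p = 3.22e-09).

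Nampt (ILMN_1363917) had the most even levels of the members across the 4 groups: 10.20 to 10.82 in BN adipose tissue, 10.21 to 10.79 in GK adipose tissue, 9.79 to 10.74 in BN liver and 10.03, 10.17 and 11.56 in GK liver. GK liver replicate 3 was the highest of the 17 arrays, and BN liver replicate 1 was the highest of its group. The same 2 arrays were also the highest of their groups for Angptl4. The difference between BN liver and BN adipose tissue was -0.34 (95% interval -0.82 to 0.14, limma adjusted p = 0.243).

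Agt (ILMN_1361016) read 13.54 to 14.06 in BN adipose tissue, 13.38 to 13.71 in GK adipose tissue, 14.11 to 14.50 in BN liver, and 13.76, 9.27 and 13.99 in GK liver. All 3 GK liver values were below all BN liver values, and GK liver replicate 2 was lower than the others by more than 4. Rbp4 (ILMN_1354144) read 6.58 to 7.65 in BN adipose tissue, 6.13 to 7.30 in GK adipose tissue, 9.56 to 10.04 in BN liver, and 9.94, 3.86 and 10.04 in GK liver, where replicate 2 was not above background. Angptl4 (ILMN_1360466) read 11.23 to 11.80 in BN adipose tissue, 11.51 to 11.78 in GK adipose tissue, 9.64 to 10.60 in BN liver, and 10.47, 8.94 and 10.80 in GK liver. A second Angptl4 probe (ILMN_1530352) was above background on only 1 of the 17 arrays, GK liver replicate 3 (6.15), and gives no comparison between groups.

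BN liver was compared to BN adipose tissue to place each member by tissue. Of the 9 members, 5 were lower and 3 were higher in liver (limma adjusted p below 0.05), against 19.4% of all 22226 probes lower and 21.9% higher. In a fit to the 8861 probes above background on at least 5 of these arrays, 6909 passed in either direction, so most expressed genes differed between the tissues. Lower were Adipoq, Lep, Retn, Cfd and Angptl4, and the last fell by 1.52 ± 0.21 (adjusted p = 9.56e-05). Higher were Rbp4 by 2.65 ± 0.22 (adjusted p = 2.05e-06), Rarres2 by 0.88 ± 0.16 (adjusted p = 7.41e-04) and Agt by 0.54 ± 0.16 (adjusted p = 0.0166). The last 2 depended on the normalization: Rarres2 differed by 0.02 with neqc (adjusted p = 0.939) and with quantile normalization (adjusted p = 1), and Agt turned to -0.24 with both (adjusted p = 0.261 and 0.287). Under those normalizations Nampt passed the threshold instead, at -0.83 with neqc (adjusted p = 0.0157) and -0.73 with quantile normalization (adjusted p = 0.0186). The share of higher probes among all those called was 53.0% with vsn, 41.8% with neqc and 41.0% with quantile normalization. Adipoq, Lep, Retn, Cfd, Angptl4 and Rbp4 kept their direction and passed under all 3 normalizations. With 5 arrays against 5, the exact permutation test (two-sided) gave 0.00794, the smallest it allows, for the 8 members whose groups did not overlap. This test took the arrays as independent, although both tissues came from the same 5 rats, so its p does not respect the pairing. The share of all probes without overlap between the tissues was not counted, so the 8 members cannot be set against it.

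**Figure D3:**
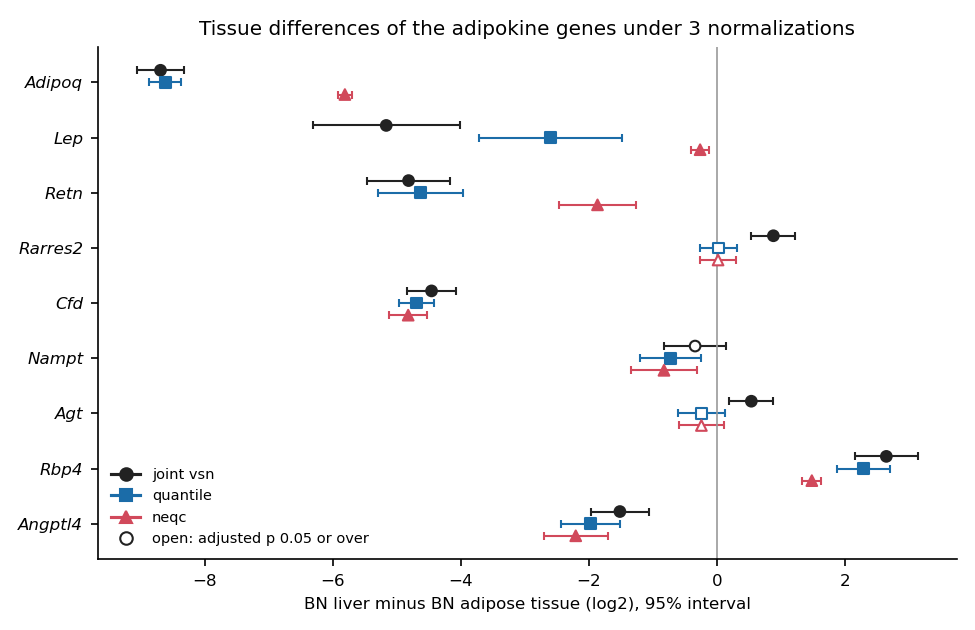
Difference between BN liver and BN adipose tissue (log2) of each adipokine gene with its 95% interval under joint vsn, quantile normalization and neqc, filled where the adjusted p was below 0.05. Rarres2 and Agt lie above 0 under vsn (0.88 and 0.54) and at 0.02 and -0.24 under the others, and Adipoq is plotted between -8.70 and -5.82. Adipoq, Lep and Retn were above background on no BN liver array, so the size of their differences is not measured and moves with the normalization.

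When the strains were compared in adipose tissue, Retn and Rarres2 were lower in GK rats and the other 7 members did not pass the threshold. Retn was 2.87-fold lower (log2 -1.52 ± 0.33, 95% interval -2.26 to -0.79, limma adjusted p = 0.0416), and Rarres2 was 1.72-fold lower (-0.78 ± 0.17, -1.16 to -0.40, adjusted p = 0.0425). Thus 2 of 9 members were lower and 0 higher, against 1.62% and 1.03% of all probes. All probes include many that were not above background. In a fit to the 8017 probes above background on at least 4 of the 9 arrays, 2 members passed, and 1130 probes in either direction. The groups did not overlap for the same 2 members, against 8.21% of all probes, and each had an exact permutation p of 0.0159 (two-sided), the smallest that 4 against 5 arrays allows. The median difference of the 9 members was -0.20, beside 0.02 over all probes. Among all probes called, 38.9% were higher in GK with vsn, 55.0% with neqc and 51.8% with quantile normalization. Both calls lay close to the threshold: the adjusted p of Retn was 0.0947 with neqc and 0.0754 with quantile normalization, and that of Rarres2 0.0541 and 0.0594. Their direction was below 0 in each of 22 fits, while 9 fits called Retn and 8 called Rarres2. Over these fits the limma adjusted p ran from 0.00547 to 0.416 for Retn and from 3.97e-04 to 0.709 for Rarres2.

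The strains were also compared without GK adipose replicates 1 and 2, the GK arrays with the most hepatocyte or muscle markers above background. GK adipose replicates 3 and 4 still had 6 of 13 muscle markers above background each, and the BN adipose arrays 2 to 9. These fits therefore do not show whether the differences hold without RNA of other tissues. Without GK adipose replicate 1, Retn differed by -1.33 (adjusted p = 0.129) and Rarres2 by -0.78 (adjusted p = 0.122). Without GK adipose replicate 2 the values were -1.45 (adjusted p = 0.127) and -0.76 (adjusted p = 0.130). Without both, Retn differed by -1.12 ± 0.38 (unadjusted p = 0.0198, adjusted p = 0.368) and Rarres2 by -0.75 ± 0.24 (unadjusted p = 0.0145, adjusted p = 0.325). So 0 of 9 members passed in each of these fits, where 1.69%, 1.66% and 0.949% of all probes did. The size of the Rarres2 difference moved by less than its SE, that of Retn fell to -1.12 from -1.52, and neither gene's groups overlapped on the remaining 2 GK arrays, where 16.1% of all probes did not overlap. With 2 arrays against 5, the exact permutation test cannot go below 0.0952 and gave that value for both. Calls were lost for other arrays as well: of the 9 fits that each left out 1 adipose array, only that without BN adipose replicate 1 kept both calls (Retn -1.28, adjusted p = 0.0424, and Rarres2 -0.87, adjusted p = 0.0267).

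Lep was 1.59 ± 0.60 higher in GK adipose tissue on the log2 scale, with a 95% interval from 0.25 to 2.93, but did not pass the threshold (unadjusted p = 0.0251, adjusted p = 0.250). With neqc the difference was 0.41 (adjusted p = 0.0948). The value rested in part on BN adipose replicate 1, which was below background: without it the difference was 1.05 ± 0.33 (adjusted p = 0.181). Without GK adipose replicates 1 and 2 it was 1.16 ± 0.79 (adjusted p = 0.705). The exact permutation p over all 9 arrays was 0.0317 (two-sided), 1 of 9 such tests in this tissue. The intervals of the remaining members bound what the arrays could have missed. The difference was -0.26 for Adipoq (-0.61 to 0.09), -0.08 for Cfd (-0.47 to 0.30), -0.04 for Nampt (-0.48 to 0.40), -0.20 for Agt (-0.55 to 0.16), -0.30 for Rbp4 (-0.99 to 0.38) and 0.04 for Angptl4 (-0.32 to 0.40). Of these 6, Adipoq and Rbp4 kept their sign in all 22 fits, and Cfd, Nampt, Agt and Angptl4 took both signs.

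Of the adipose slides, 3 held both strains. Within them, GK minus BN was -3.06, -0.74 and -0.76 for Retn and -0.41, -0.90 and -0.88 for Rarres2, so both genes were lower in GK on every slide. For Lep the within-slide values were 4.29, 0.94 and 0.55, the first against the BN array that was not above background. With the slide as a random block, Retn (adjusted p = 0.0382) and Rarres2 (adjusted p = 0.0307) passed, and with the slide as a fixed block neither did (adjusted p = 0.416 and 0.324), at differences of -1.52 and -0.73.

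**Figure D4:**
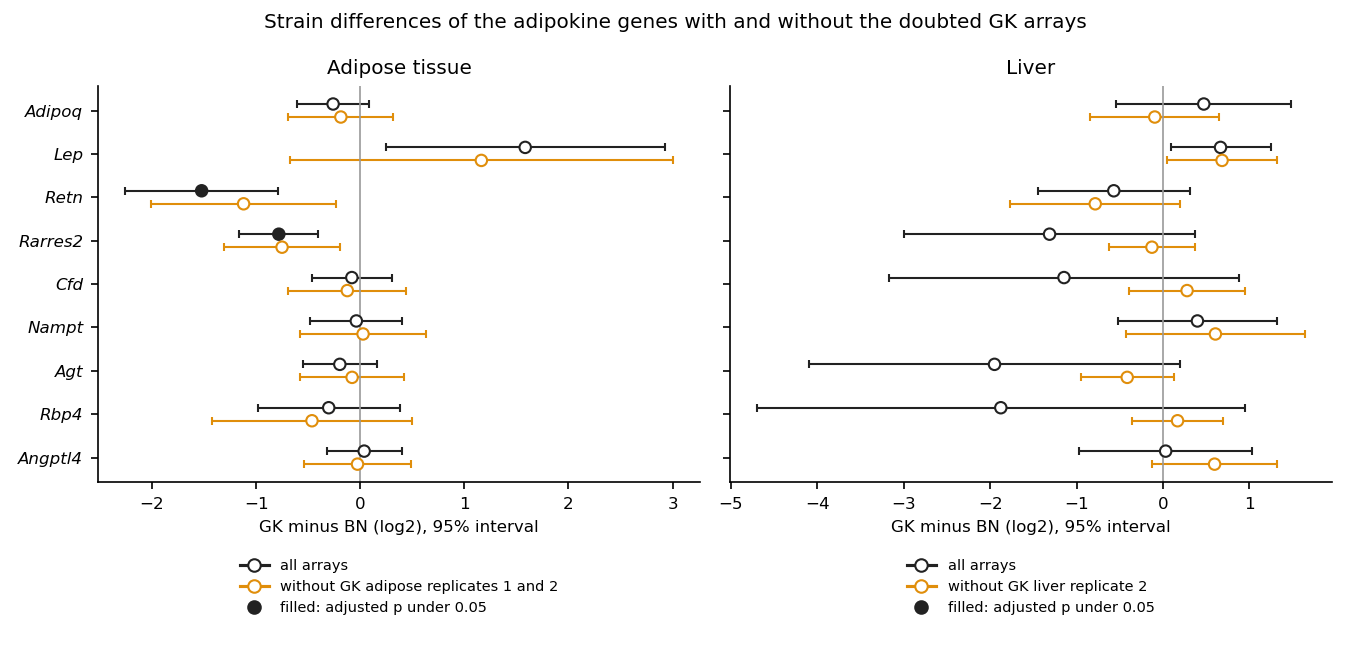
GK minus BN difference (log2) of each adipokine gene with its 95% interval, in adipose tissue with all 9 arrays and without GK adipose replicates 1 and 2, and in liver with all 8 arrays and without GK liver replicate 2. Filled points had an adjusted p below 0.05, which only Retn (-1.52) and Rarres2 (-0.78) in adipose tissue with all arrays reached.

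Between the strains in liver, 0 of 9 members passed the threshold, with or without GK liver replicate 2, where 0.679% and 1.21% of all probes did. At an unadjusted p below 0.05, 1 of 9 members (Lep, not above background) passed in each fit, and over all probes 2658 and 2882 of 22226. With all arrays the differences of Rarres2, Cfd, Agt and Rbp4 were -1.31 ± 0.74, -1.15 ± 0.89, -1.95 ± 0.95 and -1.88 ± 1.25, and without that array they were -0.13 ± 0.22, 0.28 ± 0.29, -0.41 ± 0.23 and 0.17 ± 0.23, so that Cfd and Rbp4 changed sign. Groups did not overlap for Agt and for Lep, which was not above background in either strain, in both fits, against 9.06% of all probes with the array and 17.2% without it. The Agt difference without the array had an adjusted p of 0.491 and a 95% interval of -0.95 to 0.12. Angptl4 differed by 0.03 ± 0.44 with the array and by 0.60 ± 0.31 without it (adjusted p = 0.461), and Nampt by 0.40 ± 0.40 and 0.61 ± 0.45. Without GK liver replicate 3, the highest Nampt array, the Nampt difference was -0.09 (adjusted p = 0.91). The exact permutation test with 2 GK arrays cannot go below 0.0952. On the slide that held BN and GK liver replicates 3, GK minus BN was 1.77 for Nampt, 0.96 for Angptl4, 0.72 for Cfd, 0.22 for Rbp4, 0.01 for Rarres2 and -0.41 for Agt.

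The strain difference in liver was then set against that in adipose tissue in 1 fit to all arrays, which takes in rats measured in both tissues and shares its arrays with the comparisons above. None of the 9 members differed (limma adjusted p from 0.468 to 0.997), where 1.04% of all probes did. Of all probes called, 52.6% were higher with vsn and 40.6% with neqc. Without GK liver replicate 2 the count was again 0 of 9, against 1.76% of all probes. Rarres2, lower in GK adipose tissue, had an interaction of 0.65 ± 0.25 in that fit (unadjusted p = 0.0180, adjusted p = 0.244), and Retn, below background in liver, cannot be compared there.

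Across the 9 adipose arrays, the genes whose values ran most like each member's are given as a description, over 5350 probes above background on all 9. The arrays share the split by strain, so a high r can follow from it alone. Closest to Lep were Unc5b (Pearson's r = 0.980), a netrin receptor, Ldha (0.959), which makes lactate, and Npr3 (0.951), the clearance receptor of natriuretic peptides. Closest to Retn were Gys2 (0.979), the liver form of glycogen synthase, Nnmt (0.977), which methylates nicotinamide, and mrpl9 (0.968), a mitochondrial ribosomal protein. Closest to Rarres2 were Txnrd3 (0.972), Trap1 (0.971), a mitochondrial chaperone, and Slc25a20 (0.967), the mitochondrial carnitine carrier. For Adipoq they were Pfdn1 (0.967), Sart1 (0.962) and Cript (0.934). For Cfd, Nampt, Agt, Rbp4 and Angptl4 the highest r was 0.946 with Mettl14, 0.957 with Sf3b3, 0.906 with Tnip2, 0.892 with Lrpap1 and 0.912 with Tmem50b.

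The receptors and partner pathways of the adipokines were compared between the strains in adipose tissue as well. Over all probes 1.03% were higher and 1.62% lower in GK with vsn, 2.53% and 2.07% with neqc, and 2.27% and 2.11% with quantile normalization. Of 13 measured adipokine receptors, 1 was lower and 0 higher with vsn, with a median difference of 0.23, and under both other normalizations 2 passed in each direction. The receptor called with vsn was Cmklr2, a chemerin receptor, above background on 5 of 5 BN and 0 of 4 GK arrays. Against the lowest signal above background it was about 2.20-fold lower on the vsn scale, with a fitted difference of -0.15 with neqc. The limma adjusted p of the fitted vsn difference was 0.00129. Cmklr2 passed without GK adipose replicates 1 and 2 as well (adjusted p = 0.0198). Its ligand gene is Rarres2. Of 28 other adipokines and adipose cytokines, 1 was higher and 0 lower under each of these normalizations, with a median of 0.09 with vsn. It was Ccl2, which recruits monocytes, at 0.96 ± 0.19 (adjusted p = 0.0283), and not without either of those arrays (adjusted p = 0.0968 and 0.0878) or without BN adipose replicate 1 (0.0521). None of the 9 macrophage markers passed, with a median of -0.19. None of the 14 T and NK cell markers passed either, but all 14 lay above 0 with vsn and 13 with neqc. Their median was 0.79 with vsn and 0.11 with neqc, beside 0.016 and 4.5e-04 over all probes. Without GK adipose replicates 1 and 2, 13 of the 14 lay above 0, with a median of 0.43. Their summed level (log2) was 8.98 to 10.35 on the BN and 9.76 to 11.06 on the GK adipose arrays, with 4 to 10 and 6 to 10 above background, and their part in the differences of Retn and Rarres2 was not tested.

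Around each other member, between 0 and 1 gene of a list passed with vsn. Of 6 alternative complement genes, which act with adipsin, Cd55, an inhibitor of the convertase, was lower (-0.78 ± 0.18, adjusted p = 0.0497), and did not pass without GK adipose replicate 1 (0.158), without both GK arrays (0.116) or without BN adipose replicate 1 (0.0920). Of 13 genes of retinol transport, which work with Rbp4, Crabp2, which carries retinoic acid to its receptor, was lower (-1.05 ± 0.15, adjusted p = 0.00544, and 0.0514 without both GK arrays). Under both other normalizations 1 gene of this list was higher and 1 lower. Of 9 genes of lipase regulation, where Angptl4 acts, Cd36, the fatty acid translocase, was lower (-1.22 ± 0.19, adjusted p = 0.00666, and 0.0970 without both). None of 10 adiponectin assembly genes, 9 NAD salvage genes and 14 renin-angiotensin genes passed with vsn. With neqc, 2 adiponectin assembly genes were higher, 1 NAD salvage gene was higher and 2 were lower, and 1 renin-angiotensin gene was lower. With quantile normalization the counts were 2 higher, 1 higher and 1 lower. Closest with vsn were Pdia4 (0.52, adjusted p = 0.171), Nnmt (-0.73, 0.0656) and Cma1 (0.80, 0.101). Of 14 adipocyte regulators, Nfib was lower, above background on 5 of 5 BN arrays and 1 of 4 GK arrays (adjusted p = 7.44e-06). Its fitted difference was -4.81 with vsn and -2.90 with neqc, so its size was not settled with most GK arrays near background, and it passed without both GK arrays (adjusted p = 6.76e-04). With neqc and with quantile normalization 1 adipocyte regulator was higher and 2 were lower. None of the 11 adipocyte markers passed, with a median of -0.03.

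In liver, none of these 114 receptor and pathway genes passed with all arrays, where 0.679% of all probes did. Without GK liver replicate 2, 3 did, against 1.21% of all probes. Mme, the neutral endopeptidase neprilysin, which cleaves angiotensin peptides, was above background on 0 of 5 BN and both GK arrays. Against the lowest signal above background it was about 3.07-fold higher, and its fitted vsn difference had a limma adjusted p of 0.00886. Nnmt was lower by -1.81 ± 0.29 (adjusted p = 0.0330) and Cd36 by -1.92 ± 0.29 (adjusted p = 0.0247). With all arrays their adjusted p was 0.0788, 0.275 and 0.333. Mme is also a kidney gene. The kidney marker Kap was above background on GK liver replicate 1 (7.34), 1 of the 2 arrays behind the Mme fold, and not on GK liver replicate 3 (2.38) or in BN liver (1.44 to 4.18). Kap was also above background on GK adipose replicate 2 (7.72), from the same rat as GK liver replicate 1. Its part in the Mme difference was not tested.

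Of 7 endothelial markers, 2 were higher and 1 was lower in GK adipose tissue, against 1.03% and 1.62% of all probes, and 4 did not pass. Nos3 (1.93, adjusted p = 1.53e-04) and Cdh5 (adjusted p = 0.0183) were higher in GK and Vwf was lower (-1.94, adjusted p = 6.58e-04). Cdh5 was above background on 0 of 5 BN and 4 of 4 GK arrays, and about 1.72-fold higher against the lowest signal above background. The median of the list was 9.71 to 10.3 on the GK arrays against 8.25 to 8.78 on the BN arrays. Cdh5 did not pass without GK adipose replicate 1 (0.0680) or 2 (0.0696). The summed level of the list (log2) was 12.3 to 12.9 on the GK arrays and 12.9 to 13.5 on the BN arrays, the other way from the median. The part of endothelial RNA in the differences of Retn and Rarres2 was not tested.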

How the data were processed

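The 9 members and the gene lists were chosen with earlier results of these data known. Deposited intensity values were means over beads, which the authors made with BeadStudio, without normalization or background subtraction. The deposited detection score is a fraction from 0 to 1, and above 0.99 was taken as above background (0.95 as an alternative). The authors' log2 values, made with vsn for each tissue on its own, served as an alternative. The negative control mean of each array was subtracted and 1 vsn model (trimming quantile 0.9) was fitted to all 17 arrays in Python 3.11.15 with numpy 2.4.6, and tested on simulated data. Fitted per tissue, it differed from the deposited values by 0.117 at most. Strains and tissues were compared with limma 3.58.1 in R 4.3.3 (statmod 1.5.0), adjusted over all 22226 probes by the Benjamini-Hochberg method with a threshold of 0.05. The tissue comparison was unpaired, and the rat was a random block in the interaction fit. Exact permutation tests used scipy 1.17.1. P-values describe the spread between these rats.

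Named genes were the 9 members and, of each list, up to 4 members past the threshold in a strain comparison or up to 2 with the smallest p, and for likeness the 3 highest r. Of 22226 probes, 13650 had a symbol in the platform annotation. A lower bound sets the mean of the brighter group against the dim arrays' lowest signal above background. Array precision is limited by the number of rats. The genome build of the probe design is not given in the sources used here.

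BN arrays of both tissues pair by rat in the labels (correlations of deviations from -0.0322 to 0.0682), and the fit with the rat as a replicate block, an alternative, also called 8 members. GK and BN replicate numbers come from different rats.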

Additional observations from a re-analysis of the deposited data

Results flagged for a closer look

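Of 27 groups of member values with 4 or 5 arrays that could be tested for a stray array, 1 was marked, where chance marks about 1 in 20. Adipoq on BN adipose replicate 5 (13.3 on the log2 scale) lay apart from the other 4 BN adipose arrays (12.85 to 12.97), with a gap of 0.721 of the group's range. Leaving it out moved the strain difference of Adipoq from -0.26 to -0.18 (limma adjusted p = 0.644). GK liver, with 3 arrays, was not tested, so GK liver replicate 2 could not be marked in this way. For no member did the test of the interaction between strain and tissue pass the threshold.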

How the results depend on the processing

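In adipose tissue, 2 of 9 members passed. The count was 0 with neqc, with quantile normalization, with the slide as a fixed block, with the replicate block and without GK adipose replicates 1 and 2 together, 1 with 1 fit to all 17 arrays, and 0 to 2 when 1 array at a time was left out. It was 2 with the other 6 alternatives. The replicate block, over numbers that different rats share (correlations of deviations from -0.0651 to 0.0748), called 184 probes against 588 and gave Retn -1.59 (adjusted p = 0.211) and Rarres2 -0.72 (adjusted p = 0.238). In liver and for the interaction the count was 0 under every alternative run, and the filter on detected probes left 6 members to test in liver. In liver the replicate block called 0 probes against 151, with 1503 at an unadjusted p below 0.05. Between BN tissues it was 7 with neqc, with quantile normalization and with the filter on detected probes, which left out 1 member, and 8 elsewhere. With the rat as a replicate block 8 passed as well, and 8624 probes against 9176. Agt reversed to -0.245 with neqc and -0.242 with quantile normalization, and Angptl4 to 0.539 on its other probe, which was not above background in either tissue of BN rats. The cause of these changes was not tested. Over all probes, the adipose count was 17 with the slide as a fixed block, 211 without both GK arrays and 1023 with neqc.

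Differences of Lep, Retn and Adipoq in liver are limited by signal: none was above background there in BN rats.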
